A study of Mus musculus with 12 samples.

Results

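Transcript levels of 10 genes for sterol and drug efflux pumps of the ATP-binding cassette (ABC) family were described in mouse liver. The genes were Abcg5, Abcg8, Abca1, Abcg1, Abcb1a, Abcb1b, Abcg2, Abca6, Abca8a and Abca8b. They were chosen by name, with fitted differences from these same arrays in view, and every probe set that the platform annotation gives to 1 of these symbols was taken. That gave 15 of the 45101 probe sets on the array. Abca1 had 3 probe sets, Abcg1, Abcb1a and Abcb1b had 2 each, and the other 6 genes had 1. Because the choice was made on measured values, the counts and tests of the members below describe these arrays and are no independent evidence of a direction.

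The study crossed genotype with diet in adult female mice on a B6.129 background. Wild-type mice (WT, Esr1+/+) and mice without a working copy of Esr1, the gene for estrogen receptor alpha (αERKO, Esr1-/-), were kept for 2 weeks on NIH-31 chow, the normal diet, or on a high-fat diet (60 kcal% fat). Total liver RNA was hybridised to one-colour Affymetrix 3' expression arrays, with 3 arrays in each of the 4 groups and 12 in all. The labels name no tissue restriction or promoter for the Esr1 disruption and do not describe the disrupted allele. Nor do they say whether the 3 samples in each group were different animals. The p-values therefore reflect only the scatter among these samples, and that scatter may be technical.

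ABC transporters use ATP to move lipids, sterols, bile salts, drugs and other compounds across membranes. In the liver, some of them load cholesterol into bile at the canalicular membrane of hepatocytes, others hand cholesterol and phospholipid to apolipoproteins to form high-density lipoprotein (HDL), and others again export drugs and toxins. Several of the sterol pumps are classical targets of the liver X receptors (LXR), nuclear receptors that sense oxidised cholesterol.

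The deposited values are linear MAS5 signals, an intensity per probe set and array. Array medians lay between 75.6 and 114. The brightest probe set of Esr1 read between 1963.2 and 3929.6 on the 6 WT arrays and between 586.1 and 885.3 on the 6 αERKO arrays, so every library followed its genotype label. Hepatocyte markers (9 of 10 measured) had a mean log2 signal of 15.1 to 15.66 on the 12 arrays. Pancreatic acinar markers (9 of 13 measured) were above a mean log2 signal of 9 on 4 arrays, namely WT normal diet 2 (13.7), WT high-fat 2 (9.86) and 3 (12.42) and αERKO normal diet 1 (13.43), and lay between 5.46 and 6.41 on the others. Skeletal muscle markers (13 measured) were above 7 on αERKO normal diet 1 (10.63) and 2 (7.08) and αERKO high-fat 2 (8.58). Values without these arrays are given below for the genotype calls that depend on them. Leaving out the pancreatic arrays leaves 1 WT high-fat array, and leaving out the muscle arrays leaves 1 αERKO normal-diet array. The lone array is then assumed to vary like those of the other groups. RNA came from whole tissue, so fewer cells of a type and less RNA per cell cannot be told apart.

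Differences were taken on the scale of log2(signal + 16), which understates the change of dim genes, with the brightest probe set of each gene. They were tested with limma across all 12264 genes that exceeded the array median on at least 3 arrays. A gene is called where its Benjamini-Hochberg adjusted p lies under 0.05. Of the 10 genes, 9 entered the test, each above the median on all 12 arrays. Abcb1b did not enter.

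On the normal diet, 2 of the 9 tested transporters differed between genotypes, while 1.22% of all tested genes were called. Abcg2, the breast cancer resistance protein, was higher in αERKO liver and Abcb1a, a P-glycoprotein, was lower. With high-fat feeding 3 of 9 were called against 1.98% of all genes: Abcg2 was again higher, and Abcb1a and Abca8a were lower. Over both diets together, Abcg2 and Abcb1a were called, with 4.32% of all genes called. The sterol pumps Abcg5, Abcg8, Abca1 and Abcg1 passed the test in none of these 3 comparisons.

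The median log2 difference of the 9 tested transporters was 0.14 on the normal diet, beside -0.05 for all genes. There 5 of the 9 were positive and 4 negative, beside 42.2% of all genes positive. With high-fat feeding the median was -0.39, beside -0.03 for all genes. In that comparison 2 of the 9 were positive and 7 negative, beside 45.6% of all genes positive. Both comparisons used separate arrays.

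For diet within a genotype, no member was called. In WT mice 0.0734% of all genes were called, and in αERKO mice 0.481%. At an unadjusted p under 0.05 there were 2 members in WT, beside 8.28% of all genes, and 0 in αERKO, beside 10.3%. Over both genotypes together 1 member, Abca8a, was called as higher on the high-fat diet, beside 0.946% of all genes. No gene was called for the interaction of genotype and diet (0% of the 12264 genes), so no difference in diet response between the genotypes passed the test for any member. At an unadjusted p under 0.05 the interaction gave 2 members, Abcg8 and Abca8a, and 5.94% of all genes.

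**Figure D1:**
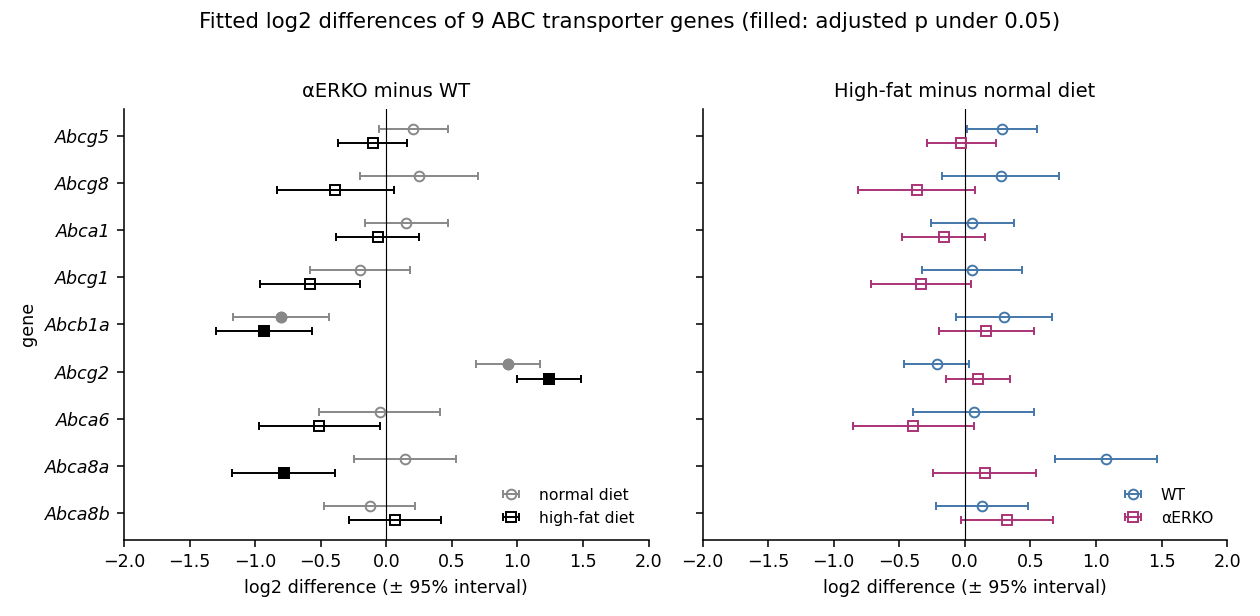
Fitted log2 differences of the 9 tested transporters with 95% intervals, αERKO minus WT within each diet on the left and high-fat minus normal diet within each genotype on the right, with filled symbols for an adjusted p under 0.05. Abcg2 stands to the right of 0 and Abcb1a to the left on both diets, Abca8a is filled for genotype on the high-fat diet alone, and no diet symbol is filled.

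Abcg5 and Abcg8 encode the 2 subunits of the canalicular pump that secretes cholesterol and plant sterols into bile. Neither was called for genotype or diet. They lie head to head on chromosome 17. In the RefSeq promoter windows of GRCm38.p6, the start of Abcg5 and the nearest start of Abcg8 are 110 bases apart. A further Abcg8 window, at chr17:84676052-84676351, does not overlap that of Abcg5 and is not shown. The stretch between the 2 nearest starts is shown because both genes share it and because its base sequence shows how short the common region is. Given on the plus strand at chr17:84683012-84683120, it is 109 bases long, with matches to the GATA core (GATAA, or TTATC on the other strand) in capitals.
Abcg5 to Abcg8: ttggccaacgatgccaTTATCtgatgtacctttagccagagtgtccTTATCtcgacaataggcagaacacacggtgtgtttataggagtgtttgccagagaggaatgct
It holds 2 GATA core matches. The same core is present in 25.4% of all 32851 promoter windows.

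Abcg5 signals were 2757.5, 2142.7 and 2064.1 in WT mice on the normal diet and 2831.4, 2759.8 and 2813.7 in WT mice on the high-fat diet. In αERKO mice they were 2586.6, 2905.9 and 2491.2 on the normal diet and 2623.3, 2378.8 and 2829.6 on the high-fat diet. The WT high-fat arrays all lay above the WT normal-diet arrays, the highest of which was just below them, and the αERKO groups overlapped. The log2 difference for diet in WT was 0.28 ± 0.12 (SE), with a limma adjusted p of 0.553. In αERKO mice it was -0.03, with a 95% interval from -0.29 to 0.24.

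Abcg8 read 1207.9, 958.6 and 1110.9 in WT normal, 1582.2, 1255.3 and 1148.3 in WT high-fat, 977.3, 1840.9 and 1208.4 in αERKO normal and 873.4, 956.9 and 1201.1 in αERKO high-fat mice. Every pair of groups overlapped, and the spread was widest in αERKO mice on the normal diet (1342 ± 447, SD, n = 3). The diet difference was 0.27 in WT and -0.37 in αERKO mice on the log2 scale. Their difference, the interaction, was -0.64 ± 0.29 (SE), with an adjusted p of 0.817.

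The 2 subunits were compared array by array after removing each group's mean log2 signal. Pearson's r was 0.546 and Spearman's rho 0.455 over the 12 arrays, with exact permutation p-values within groups (all arrangements, two-sided) of 0.0687 and 0.154. Among the 4 pairs of related members examined in this way the adjusted p was 0.262. Without the 2 arrays farthest from the median of Abcg5, r was 0.674 (exact permutation p = 0.153). The pairing of the subunits within groups therefore did not pass the test at this number of arrays.

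Abca1 hands cholesterol and phospholipid to lipid-poor apolipoprotein A-I, and Abcg1 moves cholesterol on to HDL. The brightest probe set of Abca1 read 13053.5, 11390.3 and 9805.8 in WT normal, 12704.9, 11036.3 and 11660.9 in WT high-fat, 15469.5, 11627.0 and 11084.3 in αERKO normal and 13495.9, 10712.8 and 9850.5 in αERKO high-fat mice. All groups overlapped. Over the 7 comparisons its log2 differences ran from -0.22 to 0.15, and the lowest adjusted p was 0.723. The 95% interval for genotype, averaged over the diets, ran from -0.18 to 0.27.

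The other probe sets of Abca1 were far dimmer and also showed no call. Their group means were 366 to 436 for the one and 136 to 162 for the other. In a fit of all probe sets, the genotype difference averaged over the diets was -0.20 ± 0.19 (SE) and -0.09 ± 0.18, beside 0.04 ± 0.10 for the brightest.

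Abcg1 read 580.2, 592.5 and 738.6 in WT normal and 617.2, 652.6 and 703.8 in WT high-fat mice. In αERKO mice it read 661.9, 581.0 and 431.5 on the normal diet and 505.7, 362.1 and 441.9 on the high-fat diet. Every αERKO array lay below every WT array on the high-fat diet, and on the normal diet the genotypes overlapped. The log2 difference on the high-fat diet was -0.58 ± 0.18 (SE, adjusted p = 0.118), and averaged over both diets -0.39 ± 0.13 (adjusted p = 0.0976). With array quality weights both passed, at adjusted p-values of 0.0225 and 0.0448. Those weights also raised the calls over all genes on the high-fat diet from 243 to 944. In the other alternative runs, 19 for the high-fat diet and 24 for both diets, neither difference passed.

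Macrophages are also rich in Abcg1, and their markers are given beside it. All 15 macrophage markers exceeded the array median on all 12 arrays. Their mean log2 signal ran from 10.46 to 10.55 in WT normal, 10.30 to 10.71 in WT high-fat, 9.81 to 10.46 in αERKO normal and 10.04 to 10.31 in αERKO high-fat mice. Averaged over the diets, αERKO mice had less Csf1r, the receptor for macrophage colony-stimulating factor (log2 difference -0.40, adjusted p = 0.0189), and less of the complement gene C1qa (-0.47, adjusted p = 0.0358). The other 13 were not called. Among all tested genes, the closest in pattern to Abcg1 over the 12 arrays were Vopp1 (Pearson's r = 0.944) and Mrc1, the macrophage and endothelial mannose receptor (r = 0.932). The part of the macrophage markers in the Abcg1 difference was not tested. The second probe set of Abcg1 exceeded the array median on 8 of 12 arrays, and its difference on the high-fat diet was -0.58 ± 0.54 (SE).

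**Figure D2:**
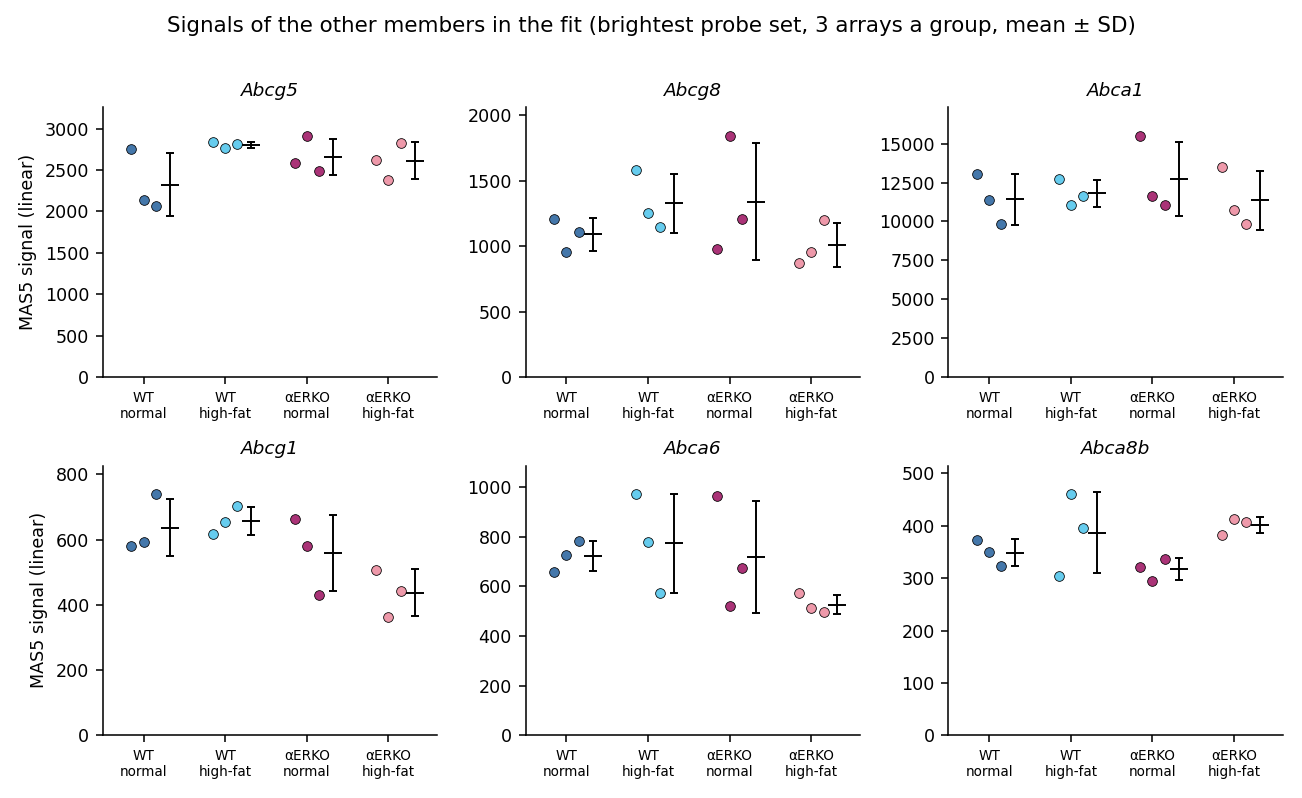
MAS5 signal (linear axis from 0) of Abcg5, Abcg8, Abca1, Abcg1, Abca6 and Abca8b, 1 point per array, with the mean and SD of 3 arrays per group. Abcg1 and Abca6 sit lowest in αERKO mice on the high-fat diet, below all WT high-fat arrays, while the Abca1 groups overlap.

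The LXR pathway list had 12 of 15 genes tested, with the sterol pumps themselves left out. Of all tested genes, 1.22% and 1.98% were called for genotype on the normal and high-fat diet. For diet the shares over all genes were 0.0734% in WT and 0.481% in αERKO mice. For genotype on the normal diet none of the 12 was called, and on the high-fat diet Scd1, the stearoyl-CoA desaturase, was higher in αERKO mice by 1.13 (log2, adjusted p = 0.0301). The diet comparison in WT gave 2 lower genes, Pltp, the phospholipid transfer protein (-1.44, adjusted p = 0.00742), and Scd1 (-1.50, adjusted p = 0.0382). In αERKO mice 1 gene was lower, Pltp (-1.09, adjusted p = 0.0153). The receptor gene Nr1h3 differed by -0.12 and 0.04 between genotypes on the normal and high-fat diet (adjusted p = 0.728 and 0.921). The list's median differences for genotype were -0.21 and -0.09, beside -0.05 and -0.03 for all genes.

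In the list of sterol handling and HDL genes, 20 of 25 were tested, and all called ones were lower in αERKO mice. On the normal diet these were Cyp39a1, an oxysterol 7-alpha-hydroxylase of bile acid synthesis (-1.29, adjusted p = 0.000327), and the HDL apolipoprotein gene Apoa2 (-0.39, adjusted p = 0.0441). After high-fat feeding they were Cyp39a1 (-1.54, adjusted p = 9.18e-05) and Lcat, which esterifies cholesterol on HDL (-0.46, adjusted p = 0.0205). Over both diets there were 4, with the cholesteryl ester hydrolase gene Nceh1 (-0.48) beside the 3 named. None of the 20 was called for diet in either genotype.

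Abcg2 is the breast cancer resistance protein, which exports drugs, urate, porphyrins and conjugated metabolites into bile. Its single probe set read 2372.2, 2165.7 and 2162.6 in WT normal and 1717.8, 2054.1 and 2000.6 in WT high-fat mice. In αERKO mice it read 4706.4, 4218.7 and 3893.8 on the normal diet and 4569.5, 4990.2 and 4156.1 on the high-fat diet. The lowest αERKO array was well above the highest WT array on either diet.

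Mean signals were 2234 ± 120.1 (SD, n = 3) in WT and 4273 ± 409 in αERKO mice on the normal diet, a log2 difference of 0.93 ± 0.11 (SE) or 1.90-fold (limma adjusted p = 0.00039). On the high-fat diet they were 1924 ± 181 and 4572 ± 417, a log2 difference of 1.24 ± 0.11 or 2.37-fold (adjusted p = 4.38e-05). The high-fat WT arrays all lay below the normal-diet WT arrays, but the diet difference in WT, -0.22 (95% interval -0.46 to 0.03), did not pass (adjusted p = 0.644). Neither did the interaction, 0.31 ± 0.16 (SE, adjusted p = 0.825).

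The Abcg2 call held when each array was left out in turn on both diets. On the normal diet it was lost without the 3 arrays with skeletal muscle transcripts, which leaves 1 αERKO normal-diet array (0.80 ± 0.17, adjusted p = 0.118), while the high-fat value was then 1.18 (adjusted p = 0.00133). Without the 4 arrays with pancreatic transcripts the difference on the normal diet was 0.84 (adjusted p = 0.0233), and on the high-fat diet, against 1 remaining WT array, it was 1.40 (adjusted p = 0.00262). Red blood cell precursors also make Abcg2. Of the 7 red cell markers 3 were measured and only Alas2, the first enzyme of erythroid heme synthesis, entered the test, higher in αERKO mice by 1.86 and 1.89 (adjusted p = 0.000323 and 0.000291). The mean log2 signal of the 3 was 6.46 to 6.93 in WT normal and 6.33 to 6.83 in WT high-fat mice. In αERKO mice it was 7.63 to 7.67 on the normal diet and 6.76 to 7.14 on the high-fat diet. The remaining markers, Hba-a1 and Slc4a1, exceeded the array median on 1 and 2 arrays, and their genotypes overlapped on each diet. Of the 3, only Alas2 had the genotypes apart, at 7.76 to 8.67 in WT and 9.44 to 10.47 in αERKO mice. The mean of the 3 thus mixes Alas2 with markers near background. The part of red cell precursors in the Abcg2 difference was not tested.

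The genes closest in pattern to Abcg2 over the 12 arrays were Ldhd, a D-lactate dehydrogenase (r = 0.979), and Elovl3, a fatty acid elongase (r = 0.976). No other member came close, the highest being Abca1 with r = 0.147. These correlations describe 12 arrays that share 4 group means.

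The 3 RefSeq promoter windows of Abcg2, each from 250 bases before to 50 after a start, were searched for 4 motifs on both strands. These were the estrogen response element (GGTCA and TGACC with any 3 bases between), the single nuclear receptor hexamer AGGTCA, a STAT5-type site (TTC and GAA with any 3 bases between) and the GATA core. The hexamer can overlap the response element, of which it is one arm. The windows with a hexamer match are shown since Abcg2 was the only member with one. The upstream 250 bases follow on the plus strand, at chr6:58584283-58584532 for the first window and chr6:58640296-58640545 for the second of them, with motif matches in capitals (AGGTCA, or TGACCT on the other strand, and in the second window also TTATC, the GATA core).
Abcg2 first: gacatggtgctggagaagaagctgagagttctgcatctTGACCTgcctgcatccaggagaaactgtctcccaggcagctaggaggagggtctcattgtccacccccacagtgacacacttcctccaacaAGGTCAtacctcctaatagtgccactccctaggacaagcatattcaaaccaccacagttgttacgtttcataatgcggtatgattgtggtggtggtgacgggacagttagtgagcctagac
Abcg2 second: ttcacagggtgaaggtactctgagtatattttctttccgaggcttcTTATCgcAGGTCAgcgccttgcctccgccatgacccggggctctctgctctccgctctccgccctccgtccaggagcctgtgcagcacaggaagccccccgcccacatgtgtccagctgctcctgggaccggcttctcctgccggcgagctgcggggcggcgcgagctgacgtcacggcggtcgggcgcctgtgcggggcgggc
The matches lie 212 and 121 bases upstream of the first start and 197 bases upstream of the other. AGGTCA was present in 2 of the 11 windows of 8 members and in 16.3% of all 32851 windows. The estrogen response element was in 0 of the 11 windows (0.07% of all) and the STAT5-type site in 0 (8.3% of all). A match in a window is a description of letters and does not show that a factor binds there. Windows for Abca6 and Abcg1 were not used here.

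Abcb1a and Abcb1b, neighbours on chromosome 5, encode the P-glycoproteins that together do the work of the single human multidrug resistance pump. The brighter Abcb1a probe set read 408.7, 570.1 and 444.9 in WT normal and 624.2, 547.2 and 574.6 in WT high-fat mice. In αERKO mice it read 282.0, 250.1 and 257.1 on the normal diet and 362.8, 279.5 and 256.4 on the high-fat diet. All αERKO arrays lay below all WT arrays on both diets.

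The log2 difference was -0.80 ± 0.17 (SE) on the normal diet, 0.574 times the WT level (adjusted p = 0.0357), and -0.93 ± 0.17 on the high-fat diet, 0.523 times the WT level (adjusted p = 0.00972). Averaged over both diets it was -0.87 ± 0.12 (adjusted p = 0.000632), and this call held in every alternative run. The call on the normal diet alone was less firm. It was lost when any one of 5 of the 6 arrays was left out in turn, with adjusted p-values from 0.0462 (without WT 1) to 0.146 (without WT 2) and differences from -0.90 to -0.67. The high-fat call was lost without WT 1 (adjusted p = 0.0605) or αERKO 2 (adjusted p = 0.0584). Centring each array on its median also ended both calls, at -0.66 (adjusted p = 0.289) and -0.83 (adjusted p = 0.102). Both were likewise lost without the pancreatic arrays, at -0.71 (adjusted p = 0.276) on the normal diet and, against 1 WT array, -1.03 (adjusted p = 0.155) on the high-fat diet. Without the muscle arrays the values were -0.83 (adjusted p = 0.546, with 1 αERKO array) and -0.89 (adjusted p = 0.102).

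The dimmer Abcb1a probe set read 267.7, 361.9 and 284.5 in WT normal, 505.6, 312.3 and 312.6 in WT high-fat, 124.9, 158.9 and 178.8 in αERKO normal and 323.4, 201.9 and 231.3 in αERKO high-fat mice. The genotypes were apart on the normal diet and overlapped on the high-fat diet. Fitted with all 25412 probe sets that passed the filter, its difference was -0.92 ± 0.24 on the normal diet (adjusted p = 0.126) and -0.54 ± 0.24 on the high-fat diet (adjusted p = 0.326). Averaged over the diets it was -0.73 ± 0.17 and passed (adjusted p = 0.0302), so both probe sets gave a lower mean level in αERKO liver.

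Abcb1b was near background. Its brighter probe set read 10.7, 3.6 and 108.7 in WT normal, 60.2, 78.2 and 37.6 in WT high-fat, 82.9, 76.1 and 29.8 in αERKO normal and 44.1, 49.8 and 67.4 in αERKO high-fat mice, above the array median on 1 of 12 arrays. The dimmer one, between 9.4 and 86.0, exceeded it on 0 of 12. The brighter probe set showed no order of the groups. Group means of the dimmer one were 48.4 in WT normal, 59.1 in WT high-fat, 34.6 in αERKO normal and 25.2 in αERKO high-fat mice. They were thus lower in αERKO mice, but the arrays of the genotypes overlapped on each diet. At this level no fold is given for Abcb1b. With each group's mean removed, Abcb1a and Abcb1b had r = -0.310 and rho = -0.273 over the 12 arrays (exact permutation p = 0.620 and 0.441, adjusted p = 0.620). Without the 2 arrays farthest from the median of Abcb1a, r was -0.310 (exact permutation p = 0.660).

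**Figure D3:**
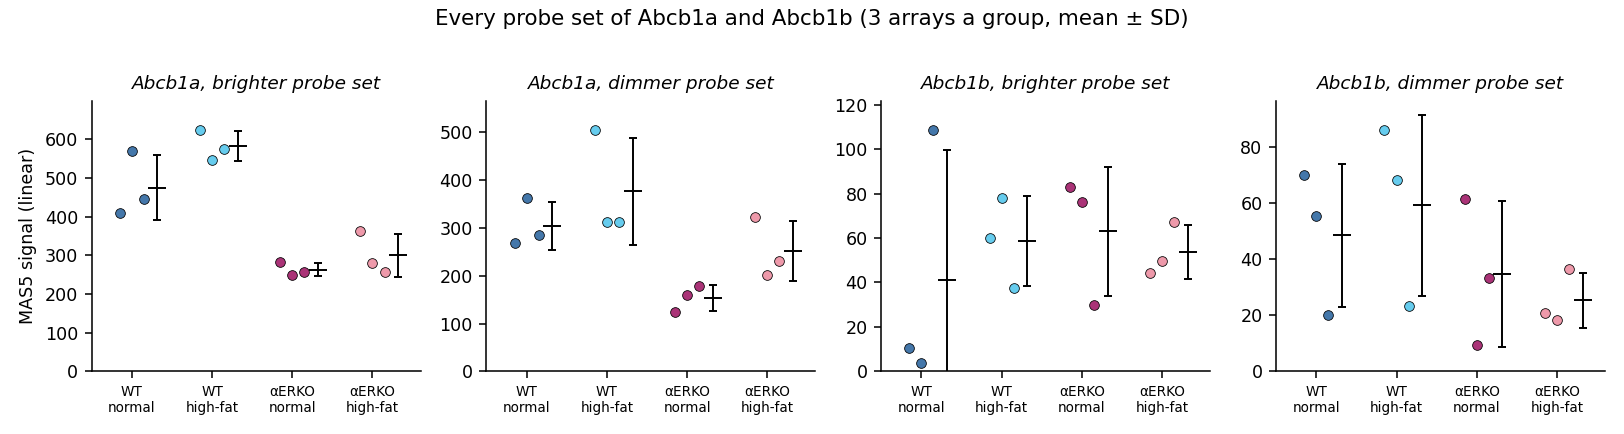
MAS5 signal (linear axis from 0, a scale of its own per panel) of both probe sets of Abcb1a and both of Abcb1b, 1 point per array, with the mean and SD of 3 arrays per group; error bars that would pass below 0 are cut there. The Abcb1a points are lower in αERKO mice on the normal diet in both panels. The Abcb1b points stay under 110, and the genotypes overlap on each diet.

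Over the 12 arrays Abcb1a was closest in pattern to Esr1 among all tested genes (r = 0.959), followed by Cyp2b13, a drug-metabolising cytochrome gene of female liver (r = 0.947). Esr1 is the disrupted gene and group means were left in, so its correlation largely restates the genotype difference of Abcb1a. Endothelial cells also carry P-glycoprotein, and 11 sinusoidal endothelium markers are given beside it. Their mean log2 signal was 9.65 to 9.89 in WT normal and 9.73 to 9.92 in WT high-fat mice. In αERKO mice it was 9.54 to 9.84 on the normal diet and 9.56 to 9.73 on the high-fat diet. None of the 11 was called in any comparison. The part of the endothelium markers in the Abcb1a difference was not tested. The single Abcb1a promoter window held none of the 4 motifs. Its upstream 250 bases, at chr5:8566841-8567090 on the plus strand, are shown beside those of Abcg2 as the window of the member called as lower on both diets.
Abcb1a: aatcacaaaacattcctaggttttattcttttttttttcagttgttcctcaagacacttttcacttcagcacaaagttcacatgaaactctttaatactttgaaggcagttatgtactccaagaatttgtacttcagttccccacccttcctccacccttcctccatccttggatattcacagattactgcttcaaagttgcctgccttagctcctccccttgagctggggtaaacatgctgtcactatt

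**Figure D4:**
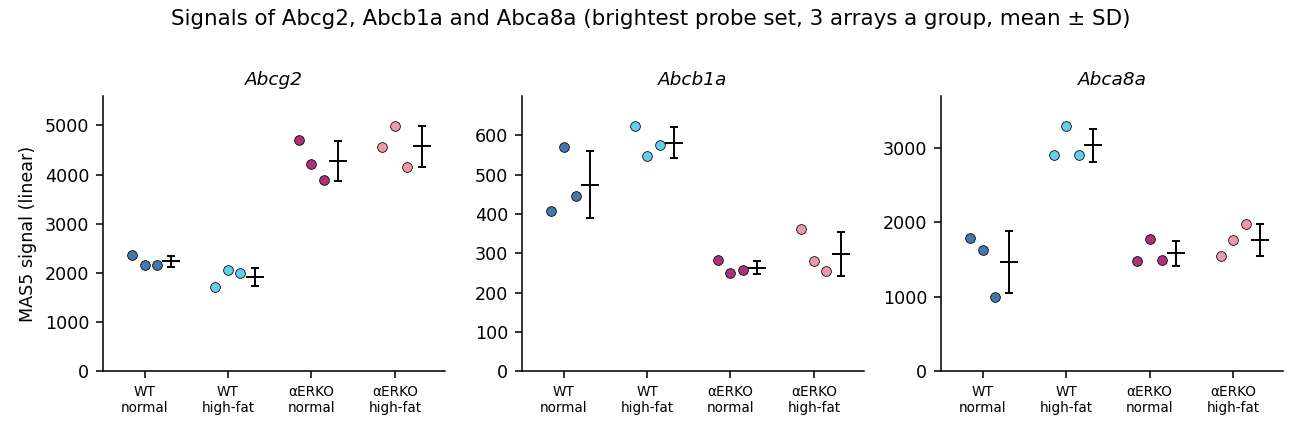
MAS5 signal (linear axis from 0, a scale of its own per panel) of Abcg2, Abcb1a and Abca8a, the members with at least 1 call, 1 point per array, with the mean and SD of 3 arrays per group. The 6 αERKO arrays lie above all WT arrays for Abcg2 and below all WT arrays for Abcb1a, and the WT high-fat arrays stand above the other 9 for Abca8a.

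A list of xenobiotic sensors and their targets had 14 of 17 genes tested and no call for genotype on either diet. The pregnane X receptor gene Nr1i2, a regulator of P-glycoprotein genes, differed by -0.16 on the normal diet and -0.43 on the high-fat diet (adjusted p = 0.622 and 0.0789). Diet in WT gave 1 lower gene, the glutathione transferase gene Gstm1 (-0.72, adjusted p = 0.0382), and diet in αERKO mice gave none. The list's median differences for genotype were -0.06 and 0.009.

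Abca8a, Abca8b and Abca6 belong to a cluster of related ABCA genes on chromosome 11, in which Abca8b, Abca8a, Abca9, Abca6 and Abca5 follow one another. Their roles in lipid transport are less well understood than those of Abca1. Abca8a read 1786.2, 1625.4 and 1000.2 in WT normal and 2903.3, 3292.4 and 2899.4 in WT high-fat mice. In αERKO mice it read 1475.1, 1769.5 and 1500.0 on the normal diet and 1543.8, 1755.2 and 1980.8 on the high-fat diet. WT mice on the high-fat diet stood apart above the other 3 groups, which overlapped with each other.

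The diet difference of Abca8a was 1.08 ± 0.18 (SE) in WT mice (95% interval 0.68 to 1.47, adjusted p = 0.0501), which just missed the threshold. In αERKO mice it was 0.15 (95% interval -0.24 to 0.54, adjusted p = 0.845). The interaction was -0.93 ± 0.26 (SE), with an unadjusted p of 0.00303 in limma and an adjusted p of 0.587 over all genes. On the high-fat diet the genotypes differed by -0.78 ± 0.18, 0.581 times the WT level (adjusted p = 0.0444), and on the normal diet by 0.14 ± 0.18 (adjusted p = 0.797). Averaged over both genotypes the diet difference was 0.61 ± 0.13 (adjusted p = 0.0396).

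Each Abca8a call was close to the threshold and was lost in most runs with 1 array left out. The genotype call on the high-fat diet was lost without any one of 5 of the 6 arrays, with adjusted p-values from 0.0438 (without αERKO 3) to 0.179 (without αERKO 1). The difference itself stayed between -0.87 and -0.69 in these runs. The diet call over both genotypes was lost without any one of 9 of the 12 arrays, with adjusted p-values up to 0.107. In turn, the diet difference in WT passed without WT normal 1 (1.24, adjusted p = 0.0455) and was 0.82 (adjusted p = 0.0840) without WT normal 3, the lowest array. Its highest adjusted p with an array left out was 0.287, without WT high-fat 2 (1.02). Without WT normal 3 the genotype difference on the normal diet was -0.11. Pancreatic acinar markers were high on WT high-fat 2 and 3 and low on WT high-fat 1 (5.97), which read 2903.3. Without the 4 pancreatic arrays, which leaves that 1 WT high-fat array, the diet difference in WT was 1.11 (adjusted p = 0.409) and the genotype difference on the high-fat diet was -0.72 (adjusted p = 0.395). Median centring of each array moved the latter to -0.68 (adjusted p = 0.254). Without the muscle arrays the genotype difference on the high-fat diet was -0.79.

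Abca8b, the adjacent paralog, read 373.9, 349.4 and 322.5 in WT normal, 305.0, 460.0 and 395.7 in WT high-fat, 321.4, 295.1 and 336.0 in αERKO normal and 383.3, 412.7 and 407.3 in αERKO high-fat mice. The αERKO high-fat arrays all lay above the αERKO normal-diet arrays, and the WT diets overlapped. The diet difference was 0.32 ± 0.16 (SE) in αERKO mice (adjusted p = 0.529) and 0.13 in WT mice (95% interval -0.22 to 0.48). Since Abca8a and Abca8b are close paralogs, transcripts of one may bind probes of the other, so each value could hold some signal of its neighbour.

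With group means removed, Abca8a and Abca8b had r = 0.377 and rho = 0.336 (exact permutation p = 0.131 and 0.350, adjusted p = 0.262), and r fell to -0.024 (exact permutation p = 0.917) without the 2 arrays farthest from the median of Abca8a. With median centring of each array r was 0.695 (exact permutation p = 0.0910, adjusted p = 0.182), so its size depended on those arrays and on the scaling, and it passed the test in none of these settings. The fourth pair examined, Abca1 and Abcg1, had r = 0.322 and rho = 0.203 (exact permutation p = 0.464 and 0.626, adjusted p = 0.618), and r was 0.389 (exact permutation p = 0.542) without the 2 arrays farthest from the median of Abca1 and 0.624 (exact permutation p = 0.0802, adjusted p = 0.182) with median centring.

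Abca6 read 658.8, 726.3 and 782.1 in WT normal, 970.3, 777.9 and 573.1 in WT high-fat, 962.0, 519.8 and 672.0 in αERKO normal and 572.2, 511.6 and 496.6 in αERKO high-fat mice. All αERKO high-fat arrays lay below all WT high-fat arrays, by less than 1 unit at the closest pair. The difference was -0.51 ± 0.21 (SE) and was not called (adjusted p = 0.269). On the normal diet it was -0.05, with a 95% interval from -0.51 to 0.41.

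The nearest patterns over the 12 arrays were Gbp3 (r = 0.929) and Dpys (r = 0.928) for Abca8a, Mm2pr (r = 0.849) and Tsacc (r = 0.839) for Abca8b, and Srek1 (r = 0.968) and Hnrnpa1 (r = 0.894) for Abca6. For the sterol pumps they were Eif2a (r = 0.944) and Hmbox1 (r = 0.914) for Abcg5, Grb14 (r = 0.927) and Thap4 (r = 0.896) for Abcg8, and Elf2 (r = 0.890) and Ddx3x (r = 0.871) for Abca1. Between members the highest correlation was r = 0.681, of Abcg5 with Abca8a. All of these describe 12 arrays in 4 groups and carry no test.

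The rest of the ABC family was read from a list of 43 further genes, 31 of them tested. For genotype 1 was lower on the normal diet, Abca3, a lipid pump of lung surfactant (-0.72, adjusted p = 0.0315), and 1 on the high-fat diet, Abcd2, a peroxisomal importer of very long fatty acids (-1.26, adjusted p = 0.00829). Averaged over the diets 3 were lower, Abcd2 (-0.99), Abca3 (-0.61) and Abcb4, the phosphatidylcholine floppase of bile (-0.30, adjusted p = 0.0371). Abcb4 was also the only one of the 31 called for diet, lower on the high-fat diet averaged over the genotypes (-0.35, adjusted p = 0.0437). None of the 31 was called as higher in any of the 7 comparisons. Of all 12264 tested genes, 72 on the normal diet, 135 on the high-fat diet and 253 over both were called as higher for genotype. Those called as lower numbered 78, 108 and 277. With so few genes called, the lack of a higher one among the 31 sets no contrast with Abcg2. Abcg2 was the one member called as higher in αERKO mice, and the members were chosen with these values in view. The list's median differences were -0.12 and -0.15 for genotype on the normal and high-fat diet.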

How the data were processed

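Total liver RNA was measured on one-colour Affymetrix 3' arrays. Signals were made with MAS5 in Affymetrix Expression Console, per the submitters' processing notes. The authors deposited 1 linear intensity per probe set and array, and on each array the mean without the lowest and highest 2% was 500.0. Detection flags, scanner files and scan batches were not used here. Gene names were taken from the platform annotation (34958 probe sets with 1 symbol, 932 with several, 9211 not listed), and symbols were updated through a RefSeq gene table. Groups came from the labels. Of 18194 genes, 12264 exceeded the array median on at least 3 arrays.

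Group means on log2(signal + 16) were fitted with limma 3.58.1 (R 4.3.3; 8 residual and 5.85 prior degrees of freedom, intensity trend, two-sided, Benjamini-Hochberg). The fit was tested on simulated data. The median standard error of a difference between 2 groups was 0.20, and the number of arrays limits the precision. Pearson correlations of log2 values were 0.939 to 0.963 within and 0.933 to 0.963 between groups. Pairs were tested in Python 3.11.15.

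The members and lists were chosen with earlier results of these data known. Named were all members, Esr1, up to 6 called genes per list and comparison, and the 2 genes most correlated with each member. Genes given without a call, Nr1h3 and Nr1i2, and the red cell and endothelial markers were picked after their values were seen. Promoter sequences were from RefSeq (GRCm38.p6). The files name no build for the probes.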

Additional observations from a re-analysis of the deposited data

How the results depend on the processing

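Of the 63 member differences 8 were called, and 0 of these changed sign under any alternative. Of the 55 not called, 26 changed sign under at least 1, none over 0.18 in size. Abcg2 on the high-fat diet and Abcg2 and Abcb1a averaged over the diets were called in every alternative run.

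For genotype on the normal diet the count of called members fell from 2 to 1, Abcg2, with no filter, median centring, quantile normalization, no intensity trend, only the compared groups fitted, the mean of probe sets, all probe sets together, without the 4 pancreatic arrays and with the replicate block. It fell to 0 without the muscle arrays, an alternative chosen after seeing the data, and was 1 to 2 with each array left out. On the high-fat diet it fell from 3 to 1, Abcg2, with median centring, the mean of probe sets, and without the pancreatic or the muscle arrays (1 to 3 with each array left out). The genotype count on the high-fat diet was 2, with Abca8a lost, with no filter, no intensity trend, all probe sets together or the replicate block. With array quality weights that count was 4, with Abcg1 added. The diet count in WT rose from 0 to 1, Abca8a, with pseudocount 64, a filter on all 12 arrays or array quality weights (0 to 1 with each array left out). The genotype count over both diets rose from 2 to 4 with array quality weights. The diet count over both genotypes fell from 1 to 0 with no filter, median centring, no trend, the mean of probe sets, all probe sets together, and without the pancreatic or the muscle arrays (0 to 1 with each array left out).

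The Abca8a genotype difference on the normal diet ran from -0.11 to 0.30 with each array left out. The pair Abca8a and Abca8b gave r = -0.024 without the 2 farthest arrays and 0.695 with median centring, which moved Abca1 and Abcg1 to 0.624. Median centring raised the median of all genes by 0.14 (normal diet), 0.10 (high-fat) and 0.12 (both diets) for genotype. It moved Abcb1a to -0.66 (adjusted p = 0.289) and -0.83 (0.102) and Abca8a on the high-fat diet to -0.68 (0.254). The count over all genes for genotype on the normal diet was 150, and 94 with median centring, 83 with no trend, 71 with only the compared groups, 80 without the pancreatic and 32 without the muscle arrays. On the high-fat diet it was 243, and 944 with array quality weights, 116 with median centring or no trend, 60 without the pancreatic and 91 without the muscle arrays.

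To look for pairing by sample number, each gene's deviations from its group mean were correlated between samples of different groups. For same-numbered samples these correlations were -0.30 to 0.21 over 18 pairs, 4 of them over 0.1. For differently numbered samples they ran from -0.25 to 0.28. The numbers thus showed no clear pairing, but such correlations over all tested genes cannot exclude one. With the replicate block, Abcb1a on the normal diet had an adjusted p of 0.0603 and Abca8a on the high-fat diet 0.0552. The cause of these changes was not tested. MAS5 signals near the array median scatter widely, which limits Abcb1b and the dim Abcg1 probe set.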
